A study of Homo sapiens with 40 samples.

Results

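The comparison set 786-0 cells labelled as a SETD2 knockout (KO) against 786-0 cells with SETD2 intact (WT) while both were held in the PARP inhibitor talazoparib alone. Talazoparib is the compound BMN673, written as BMN in the sample labels and given at 10 nM. The series text spells the compound number inconsistently, and BMN673 was taken. Members were chosen by their labels only: 6 KO libraries and 6 WT libraries from cells with this drug and no other, 2 in each line at days 5, 16 and 26. These 12 were part of a series of 40 RNA sequencing libraries from the same 2 lines. The drug-free reference was 4 libraries at day 0, 2 KO and 2 WT. A further reference was 12 libraries with DAC alone at 100 nM (decitabine, which depletes DNA methyltransferases), 6 in each line on the same days. 786-0 is an established line of clear cell renal cell carcinoma, and every group shared that background.

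SETD2 places the third methyl group on lysine 36 of histone H3 along the bodies of transcribed genes, and its gene is often mutated in clear cell renal carcinoma. PARP1 and PARP2 sense DNA strand breaks and build poly(ADP-ribose) chains there. Talazoparib blocks that activity and holds the enzymes on DNA, which leaves lesions that replicating cells repair by homologous recombination with proteins such as BRCA1 and RAD51C.

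The design limits what a difference between the lines can be read as. Each genotype was 1 line, so effects of SETD2 loss and other differences between the 2 lines cannot be told apart. The labels do not say whether the 2 libraries of a group came from separate cultures, and p-values then measure only the spread between these libraries. Untreated cells were sampled at day 0 alone, so the drug and the time in culture cannot be told apart. This holds within a line and for any change in the line difference from untreated cells to talazoparib.

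The 12 libraries held 18109608 to 21914622 counts over 60664 genes, and 19290 genes had enough counts to be tested. The first principal component of the 12 talazoparib and 4 untreated libraries took 54.8% of the variance and separated the lines. The second took 11.3% and rose from day 5 to day 16 to day 26 in both lines, but the 2 untreated WT libraries lay far apart on it, 1 of them above both WT libraries of day 5. Counts over the whole SETD2 gene (chr3:47016429-47164113) do not check the KO label, since a small deletion can leave its RNA in place. SETD2 lay at 121 to 155 CPM (counts-per-million, scaled for library composition) in KO, with a median of 149, and at 133 to 180 CPM in WT, with a median of 144. The 2 sets overlapped and the difference did not pass (log2 -0.06 ± 0.05 SE, adjusted p = 0.26). PAX8, the transcription factor of kidney epithelium, was present in both lines at means of 386 CPM in KO and 394 CPM in WT. PTPRC, which marks blood cells, had no counts in any of the 12 libraries, and PECAM1, which marks endothelium, did not exceed 0.0455 CPM. Of 19 blood cell markers, 4 had enough counts to be tested, and LCP1 was the 1 that rose. Of 14 fibroblast markers 8 could be tested, of which 3 rose and 4 fell, and of 13 endothelial markers 2 could be tested, of which FLT1 fell.

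3 pairs of libraries differed more than the rest. The WT libraries at day 26 differed from each other by a chi-square of 10.19 per gene, against 1.638 to 3.45 in the other talazoparib groups. In the untreated groups the value was 17.62 in WT and 6.776 in KO. The day-blocked comparison of the lines changed little with any 1 library left out (9494 to 10212 genes passed). Counts that rest on any single day, on the change between days or on the untreated cells moved more. Ranges with single libraries left out are given beside the totals that involve day 26 or the untreated cells.

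Under talazoparib, KO and WT differed at 9884 of the 19290 genes tested (51.2%), with day as a blocking factor in edgeR's quasi-likelihood test and a Benjamini-Hochberg adjusted p below 0.05. Expression was higher in KO at 4799 genes (24.9%) and lower at 5085 (26.4%). A change of at least 2-fold was found for 603 higher genes (3.13%) and 1492 lower genes (7.73%). All 6 KO libraries lay above all 6 WT libraries at 1851 genes (9.6%) and below all of them at 2638 (13.7%). These shares are the background for the counts of gene groups that follow, since at a threshold passed by 51.2% of genes a passing member is common. RNA was taken from whole cultures, so fewer cells expressing a gene and less RNA per cell cannot be told apart.

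The genes with the widest separation were close to silent in 1 of the 2 lines. LCP1, an actin-bundling protein known from blood cells, lay at 182, 238 and 249 CPM (lowest, median and highest of 6 libraries) in KO and at 0.771, 1.26 and 1.59 CPM in WT (log2 7.52 ± 0.07, adjusted p = 4.2e-27). A pair of genes that sit near each other on chromosome 2 was found almost only in KO libraries. GALNT5, which starts O-linked glycosylation (chr2:157257705-157318491), lay at 14.5 to 19.5 CPM in KO with a median of 17.8, while the 6 WT libraries held 2 counts in all. CYTIP, a cytohesin-binding protein (chr2:157414619-157488961), lay at 4.54 to 8.56 CPM in KO with a median of 6.12, and the WT libraries held 3 counts. No fold is given where WT held so few counts. The potassium channel gene KCNJ15 and the lipid-binding protein gene OSBPL1A were of the same kind, with means of 5.34 and 5.65 CPM in KO and 4 counts each over the WT libraries. AFF2 on the X chromosome, a member of a family of transcription elongation scaffolds, had a mean of 30.1 CPM in KO against 0.551 CPM in WT (log2 5.71 ± 0.11, adjusted p = 6e-21).

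At the other end were genes with no count in any KO library. NDN, the imprinted gene of the protein necdin (chr15:23685400-23687305), had 0 counts in the 6 KO libraries and lay at 9.86, 12.5 and 13.3 CPM (lowest, median and highest) in WT. It was at least 78.6-fold lower in KO, against a floor of 3 counts in each KO library. PDPN, the membrane mucin podoplanin (chr1:13583465-13617957), lay at 7.23 to 13.9 CPM in WT with a median of 9.78 and had 0 counts in KO, at least 68.2-fold lower. TMEM98, a membrane protein of chr17:32927910-32945106, was at least 76.3-fold lower, with 8.92 to 13.9 CPM in WT. In all, 18 genes had 0 counts in the 6 KO libraries and a mean of at least 1 CPM in WT, and 14 of them also had 0 counts in both untreated KO libraries. The reverse held for 2 genes, of which 1 was NELL2. COL4A5, a collagen of basement membranes (chrX:108439838-108697545), was detected at 28.1 to 34.6 CPM in WT and at 0 to 0.104 CPM in KO (log2 -9.35 ± 0.19). MXRA5, ZMAT1, COL4A5, SLC38A5 and ZC4H2, 5 of the 12 widest falls by the naming rule, lie on the X chromosome. Of 672 X-linked genes tested, 58 (8.63%) were at least 2-fold lower in KO and 28 (4.17%) at least 2-fold higher.

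**Figure D1:**
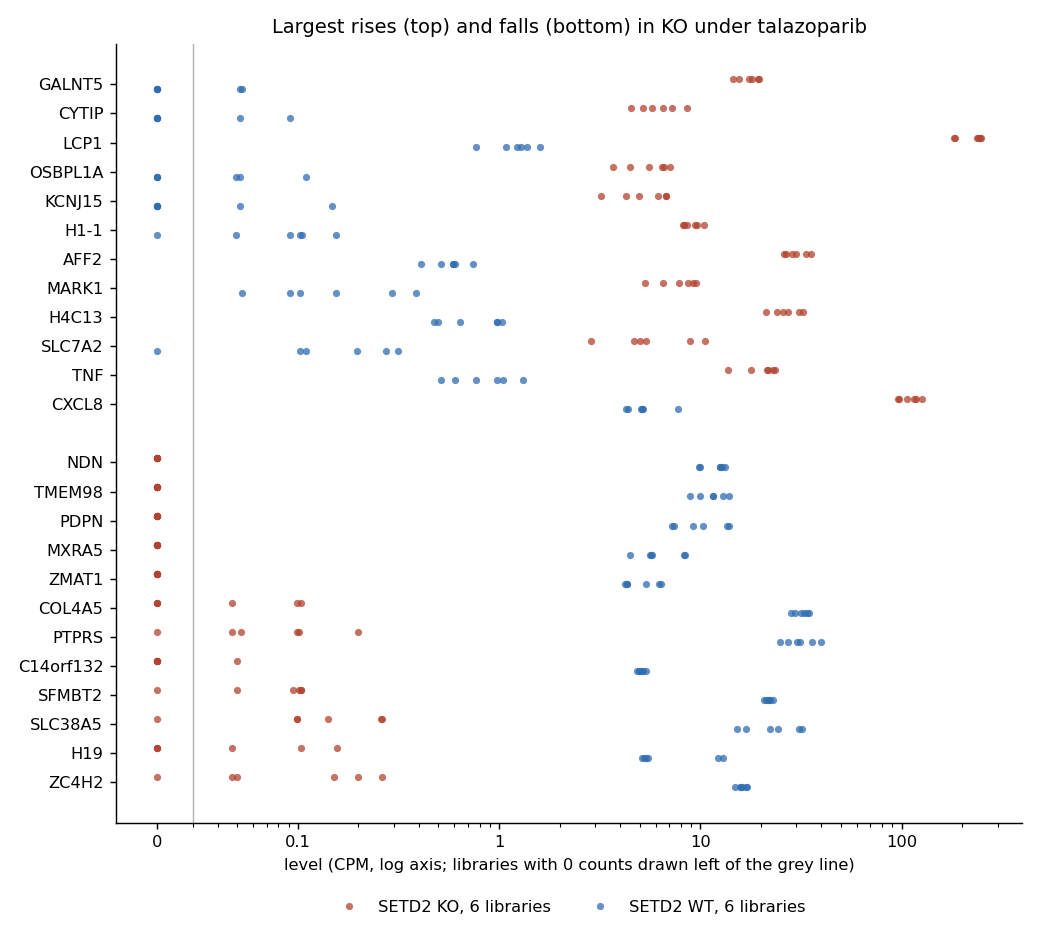
Levels of the 12 widest rises and 12 widest falls in KO under talazoparib, in CPM on a log axis, with 1 point for each of the 6 KO and 6 WT libraries and libraries at 0 counts drawn left of the grey line. In every gene shown the KO and WT points do not overlap, which was a condition for being shown, and NDN, TMEM98, PDPN, MXRA5 and ZMAT1 have all 6 KO points at 0.

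The RefSeq promoters of the 2 widest rises and 2 widest falls that the promoter table holds are printed with those of TNF and CXCL8, because the series also used a DNA methyltransferase inhibitor and the CG content of a promoter is where DNA methylation can act. Each runs 5′ to 3′ on the gene's strand from 250 bases before the start to 50 after it (GRCh38.p14), with every CG dinucleotide in capitals. GALNT5 and TMEM98 are named only. The LCP1 (chr13:46182128-46182427, minus strand, 2 CG) and CYTIP (chr2:157444040-157444339, minus strand, 1 CG) promoters are those of genes expressed in KO, and the NDN (chr15:23687256-23687555, minus strand, 35 CG) and PDPN (chr1:13583507-13583806, plus strand, 19 CG) promoters those of genes with no counts in KO. The TNF promoter (chr6:31575315-31575614, plus strand) holds 11 CG and the CXCL8 promoter (chr4:73740319-73740618, plus strand) holds 4.
LCP1: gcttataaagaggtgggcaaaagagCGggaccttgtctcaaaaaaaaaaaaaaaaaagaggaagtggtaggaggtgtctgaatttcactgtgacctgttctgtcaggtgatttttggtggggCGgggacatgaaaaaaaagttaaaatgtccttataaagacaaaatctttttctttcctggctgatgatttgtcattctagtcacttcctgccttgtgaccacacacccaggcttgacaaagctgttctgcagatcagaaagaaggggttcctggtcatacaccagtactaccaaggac
CYTIP: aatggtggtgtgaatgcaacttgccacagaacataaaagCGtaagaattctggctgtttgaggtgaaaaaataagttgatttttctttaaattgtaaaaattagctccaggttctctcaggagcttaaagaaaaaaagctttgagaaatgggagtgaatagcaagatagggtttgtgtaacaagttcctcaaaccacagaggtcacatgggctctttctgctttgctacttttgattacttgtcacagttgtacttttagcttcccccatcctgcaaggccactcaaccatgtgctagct
NDN: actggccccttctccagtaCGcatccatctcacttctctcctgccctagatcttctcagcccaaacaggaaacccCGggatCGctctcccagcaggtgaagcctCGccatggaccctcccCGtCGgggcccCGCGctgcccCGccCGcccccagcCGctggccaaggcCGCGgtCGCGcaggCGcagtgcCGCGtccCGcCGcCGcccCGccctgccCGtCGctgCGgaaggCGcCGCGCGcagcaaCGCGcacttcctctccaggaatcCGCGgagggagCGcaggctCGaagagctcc
PDPN: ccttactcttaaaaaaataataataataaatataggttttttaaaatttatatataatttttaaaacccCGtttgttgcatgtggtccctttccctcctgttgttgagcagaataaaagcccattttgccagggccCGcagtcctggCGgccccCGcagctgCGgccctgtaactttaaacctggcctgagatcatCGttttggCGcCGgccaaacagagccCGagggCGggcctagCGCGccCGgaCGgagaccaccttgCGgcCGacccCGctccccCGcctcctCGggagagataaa
TNF: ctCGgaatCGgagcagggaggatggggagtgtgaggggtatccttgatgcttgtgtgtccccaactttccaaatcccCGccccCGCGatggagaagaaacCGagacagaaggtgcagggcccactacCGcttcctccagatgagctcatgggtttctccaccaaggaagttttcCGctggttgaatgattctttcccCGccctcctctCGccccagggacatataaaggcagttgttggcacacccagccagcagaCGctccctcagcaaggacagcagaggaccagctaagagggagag
CXCL8: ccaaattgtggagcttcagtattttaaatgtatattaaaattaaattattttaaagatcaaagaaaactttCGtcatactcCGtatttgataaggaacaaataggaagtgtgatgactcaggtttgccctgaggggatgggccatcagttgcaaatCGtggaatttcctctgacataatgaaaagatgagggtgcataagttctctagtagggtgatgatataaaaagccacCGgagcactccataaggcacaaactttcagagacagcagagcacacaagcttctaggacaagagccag

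Both LCP1 and CYTIP stand at the low end of CG content. Over the 11452 tested genes with a promoter in the table, the median was 26 CG per 300 bases with quartiles of 17 and 34, and 3.41% held 2 or fewer (99.4% held at least 1). Among the 349 genes at least 2-fold higher in KO the median was 19 CG with quartiles of 5 and 31. Among the 939 genes at least 2-fold lower it was 22 CG with quartiles of 8 and 33. These are descriptions of the RefSeq letters, and no methylation was measured.

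Inflammatory cytokine and NF-kB target genes were the list most shifted to the KO side. NF-kB is a family of transcription factors that cytokines such as TNF activate, and its targets include its own inhibitors. Of 35 members measured, 28 were higher and 7 lower, with a median log2 difference of 0.874 against -0.001 for all genes, and for 24 members all KO libraries lay above all WT libraries. TNF, the founding cytokine of the pathway (chr6:31575565-31578336), lay at 13.8, 21.6 and 23.5 CPM in KO and at 0.516, 0.876 and 1.32 CPM in WT (lowest, median and highest; log2 4.55 ± 0.12, adjusted p = 1.6e-18). CXCL8, the neutrophil chemokine interleukin-8 (chr4:73740541-73743716), lay at 96.3, 111 and 126 CPM in KO and at 4.27, 5.1 and 7.71 CPM in WT (log2 4.41 ± 0.10, adjusted p = 2.8e-16). IL6 ranged from 14.1 to 26.5 CPM in KO and from 1.52 to 4.9 CPM in WT (log2 2.52 ± 0.13). In all 3 genes every KO library was above every WT library.

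The higher members ranged from surface proteins to the factors themselves. ICAM1, the adhesion molecule that leukocytes bind, had a median of 396 CPM in KO and 158 CPM in WT (log2 1.27 ± 0.07). The transcription factor subunits NFKB1 (log2 0.87 ± 0.04), NFKB2 (1.14 ± 0.05) and RELB (1.05 ± 0.06) were higher, as were the inhibitors TNFAIP3 (1.61 ± 0.08) and NFKBIA (0.76 ± 0.05). TNFRSF1A, the main receptor of TNF, was lower (log2 -0.60 ± 0.05). C3, the central complement component, led the 7 members that were lower. It lay at 4.02, 5.12 and 7.23 CPM in KO and at 53.9, 59.1 and 73.3 CPM in WT (log2 -3.49 ± 0.08, adjusted p = 5.6e-20). The other 6 were LCN2, PTGS2, TNFAIP6, BCL3, SAA1 and TNFAIP2. Untreated cells, in which 14.1% of all genes tested were higher in KO and 14.5% lower, showed 25 higher and 3 lower members, and TNF stood at 20.3 and 21.3 CPM in untreated KO and at 0.302 and 1.19 CPM in untreated WT.

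Ligands and feedback genes of the EGF receptor and ERK pathway were higher in KO while 2 of its receptors were lower. Of 27 members measured 20 were higher and 4 lower (median log2 0.72). HBEGF, an EGF receptor ligand, lay at 30.2, 37.3 and 55.1 CPM in KO and at 9.2, 11.9 and 19.5 CPM in WT (log2 1.66 ± 0.07, adjusted p = 2.4e-15). TGFA and EREG, ligands of the same receptor, were also higher (log2 0.95 ± 0.05 and 0.79 ± 0.13). DUSP5, a phosphatase that ERK induces and that acts on ERK, lay at 11.6 to 23.7 CPM in KO and 2.95 to 6.05 CPM in WT (log2 1.99 ± 0.10). SPRY2, a feedback inhibitor of the same cascade (log2 1.49 ± 0.11), and CCND1, the G1 cyclin (0.73 ± 0.04), rose. EGFR itself had a median of 492 CPM in KO and 759 CPM in WT, with no overlap (log2 -0.69 ± 0.04), and ERBB2 had 59.3 against 125 CPM (log2 -1.07 ± 0.05). ERBB2 lies in the stretch of chromosome 17 described further on.

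The amino acid response was higher in KO for most of its members. In this integrated stress response, phosphorylated eIF2 favours translation of ATF4, which drives genes of amino acid synthesis and uptake. Of 25 members measured 19 were higher and 5 lower (median log2 0.393). STC2, a secreted glycoprotein, lay at 178, 193 and 229 CPM in KO and at 32.2, 32.9 and 36.4 CPM in WT (log2 2.58 ± 0.05, adjusted p = 7.8e-21). PSAT1 of serine synthesis (log2 1.26 ± 0.05), CHAC1 of glutathione breakdown (1.60 ± 0.10), ATF4 (0.61 ± 0.06) and ATF3 (0.99 ± 0.07) were higher. DDIT3, the death-linked factor CHOP, was lower (log2 -0.43 ± 0.09, adjusted p = 0.00051), as was VLDLR (-1.09 ± 0.05). Among 23 amino acid transporter genes 12 were higher and 8 lower. SLC7A11, the cystine importer, lay at 126 to 184 CPM in KO and at 37.1 to 60.3 CPM in WT (log2 1.64 ± 0.07), and the glycine transporter gene SLC6A9 was also higher (2.74 ± 0.13).

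No retinoid gene passed as higher in KO. Retinoid genes make, break down and respond to retinoic acid, which ALDH1A enzymes form and CYP26 enzymes destroy. Of 18 members measured 15 were lower and 0 higher, with a median log2 difference of -1.128, and for 11 of them all KO libraries lay below all WT libraries. Of the synthetic enzymes, ALDH1A3 lay at 2.66, 3.2 and 3.92 CPM in KO and at 32.4, 34.9 and 36.5 CPM in WT (log2 -3.38 ± 0.09, adjusted p = 9e-19), and ALDH1A1 at 155, 177 and 245 CPM against 580, 611 and 652 CPM (log2 -1.68 ± 0.10). CYP26B1, a degrading enzyme, fell with them (log2 -3.55 ± 0.22), as did DHRS3, which turns retinal back to retinol (-2.54 ± 0.06), and STRA6, the retinol uptake receptor (-2.46). RARRES2, a retinoid-responsive chemokine gene, had medians of 121 and 336 CPM (log2 -1.47 ± 0.05). The nuclear receptor genes RARA, RARB, RARG and RXRA were also lower. CRABP2, RDH11 and LRAT did not pass.

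Genes of the kidney tubule leaned the same way, with 1 of 17 measured higher and 9 lower. ANPEP, the brush border aminopeptidase, fell from a WT mean of 10.5 CPM to 0.126 CPM in KO (log2 -6.29 ± 0.23). The medium-chain acyl-CoA ligase genes ACSM2A and ACSM2B were lower (log2 -5.11 ± 0.28 for ACSM2A), but they are near-identical copies whose reads could be shared. CDH6, a cadherin of the proximal tubule, was lower (log2 -1.89 ± 0.07). Of the 12 drug efflux transporter genes measured 2 were higher and 8 lower. ABCB1, the P-glycoprotein pump whose substrates include PARP inhibitors, was 1 of the 2. It lay at 48, 53.3 and 56.2 CPM in KO and at 33.2, 35.5 and 40.1 CPM in WT (log2 0.57 ± 0.05, adjusted p = 3.5e-09). ABCG2 (log2 -1.14 ± 0.20) and ABCC6 (-1.79 ± 0.19) fell.

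The targets of the drug and the genes of DNA repair differed by less than these groups. PARP1, the main target (chr1:226360210-226408154), lay at 333, 368 and 399 CPM in KO and at 260, 273 and 288 CPM in WT, with no overlap (log2 0.43 ± 0.04, adjusted p = 1.1e-08). PARP2 lay at 24.2 to 36.8 CPM in KO and 31.4 to 38.8 CPM in WT and did not pass (log2 -0.10 ± 0.07, adjusted p = 0.28). PARG, the enzyme that removes poly(ADP-ribose), was higher (log2 0.29 ± 0.05) with overlapping libraries. MACROD2, an ADP-ribose hydrolase, lay at 18 to 22.2 CPM in KO and 43.6 to 65.6 CPM in WT (log2 -1.37 ± 0.07). Of 31 genes of PARP biology and single-strand break repair 8 were higher and 6 lower, shares of 25.8% and 19.4% that lie near those of all genes.

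Of 43 homologous recombination and Fanconi genes measured 18 were higher and 10 lower (median log2 0.144). At day 5 alone 12 were higher and 5 lower (15.4% and 17.1% of all genes). The counts were 11 and 6 at day 16 (15.4% and 16.7% of all genes), and 8 and 9 at day 26. The medians on these days were 0.181, 0.081 and -0.015. At day 26 the shares were 18.6% and 20.9%, against 19% and 20.1% of all genes. The 10 lower in the day-blocked comparison include all 4 members in the chromosome 17 stretch, where 77.2% of all genes tested were lower. BRCA1, which starts the repair (chr17:43044295-43170245), lay at 99.5, 116 and 122 CPM in KO and at 141, 167 and 184 CPM in WT (log2 -0.51 ± 0.04, adjusted p = 2.3e-10). RAD51C, which acts later in the same repair (chr17:58692573-58735611), lay at 8.97, 9.89 and 11.5 CPM in KO and at 22.2, 22.7 and 23.5 CPM in WT (log2 -1.18 ± 0.07, adjusted p = 2.6e-12). RAD51D and the nuclease gene EME1 were the other 2. Of the 39 members elsewhere 18 were higher and 6 lower. XRCC2 had medians of 79.6 and 57.1 CPM (log2 0.59 ± 0.06), and RAD54B (0.67 ± 0.08), BRIP1 (0.47 ± 0.06) and BRCA2 (0.32 ± 0.12, adjusted p = 0.039) were higher by less than 2-fold.

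ATM, the kinase that answers double-strand breaks, lay at 91.7, 96.6 and 113 CPM in KO and at 58.6, 70 and 87.4 CPM in WT (log2 0.53 ± 0.06, adjusted p = 7.3e-08). Of 21 end joining and shieldin genes 9 were higher and 2 lower. SHLD2, a shieldin subunit that limits end resection, lay at 83.4 to 116 CPM against 52.1 to 78.3 CPM (log2 0.65 ± 0.07), and TP53BP1, which acts upstream of it, was slightly lower (-0.18 ± 0.04). Of 26 replication stress genes 8 were higher and 6 lower, near the shares of all genes. CHEK1 (log2 0.56 ± 0.06) and WEE1 (0.61 ± 0.05), the kinases that hold S phase and entry into mitosis, were higher with no overlap. ATM, SHLD2 and CHEK1 lie among genes that were often higher, beside 24.9% of all genes tested. The 5 Mb window of ATM (chromosome 11, 105 to 110 Mb) had a median of 0.477, with 56.5% higher. That of CHEK1 (chromosome 11, 125 to 130 Mb) had 0.451 and 70%. That of SHLD2 (chromosome 10, 85 to 90 Mb) had 0.443 and 48.8%. The window of WEE1 (chromosome 11, 5 to 10 Mb) had a median of -0.073. Whether position accounts for these rises was not tested. SLFN11, which blocks stressed replication forks and whose level is known to track sensitivity to PARP inhibitors (chr17:35350305-35373701), lay at 76.2, 87.3 and 91.8 CPM in KO and at 136, 143 and 157 CPM in WT (log2 -0.73 ± 0.04, adjusted p = 7.1e-13).

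Mitotic genes were modestly higher in KO. Of 37 mitosis and G2/M genes 23 were higher and 4 lower (median log2 0.235), and more were higher than lower on each day alone, with 10 higher and 4 lower at day 5 (15.4% and 17.1% of all genes), 15 and 3 at day 16 (15.4% and 16.7%), and 20 and 1 at day 26 (19% and 20.1%). CDK1, the mitotic kinase, lay at 178, 183 and 198 CPM in KO and at 104, 128 and 144 CPM in WT (log2 0.57 ± 0.05). The 5 Mb window of CDK1 (chromosome 10, 60 to 65 Mb) had a median of 0.517, with 70.6% higher, beside 24.9% of all genes. Whether position accounts for the rise of CDK1 was not tested. MKI67, the marker of cycling cells, was higher with overlapping libraries (log2 0.52 ± 0.04). Untreated, 13 of the 37 mitotic genes were higher and 2 lower (median log2 0.092), against 14.1% and 14.5% of all genes. Of 41 DNA replication and S-phase genes 14 were higher and 12 lower. Among 31 p53 target genes 17 were higher and 7 lower (median log2 0.195). The same list had 18 higher and 5 lower in untreated cells (median log2 0.499). FAS, the death receptor, lay at 28.4 to 44 CPM in KO and 12.8 to 16.5 CPM in WT (log2 1.39 ± 0.08). Its 5 Mb window, the same as that of SHLD2 (chromosome 10, 85 to 90 Mb), had a median of 0.443, with 48.8% higher. CDKN1A, the cell cycle inhibitor p21, ranged from 60.9 to 175 CPM in KO and from 58.8 to 151 CPM in WT and did not pass (log2 0.12 ± 0.06, adjusted p = 0.14). MDM2 did not pass either (0.12 ± 0.06, adjusted p = 0.086).

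Interferon-stimulated genes divided, with 9 of 45 higher and 18 lower. OAS1, a sensor of double-stranded RNA, lay at 0.0504, 0.219 and 0.695 CPM in KO and at 1.86, 3.17 and 4.18 CPM in WT (log2 -3.48 ± 0.29, adjusted p = 6.7e-10). HERC5, the ligase for the ubiquitin-like ISG15, had medians of 2.13 and 20.7 CPM (log2 -3.18 ± 0.11), and IFI27 had 0.937 and 9.02 CPM (-3.21 ± 0.16). GBP1, an interferon-induced GTPase, went the other way, with medians of 39.7 and 11.1 CPM (log2 1.76 ± 0.07). Of 19 nucleic acid sensing genes 1 was higher and 5 lower, but without day 26 the counts were 5 and 5. The endosomal RNA receptor TLR3 was among the lower ones (log2 -1.44 ± 0.10). The 5 Mb window of TLR3 (chromosome 4, 185 to 190 Mb) had a median of -1.401, with 80% lower, beside 26.4% of all genes. Whether position accounts for the fall of TLR3 was not tested. MHC class I genes had 13 of 21 higher and 4 lower: the peptide transporter subunit TAP2 was higher (log2 0.93 ± 0.07) and the immunoproteasome subunit PSMB9 lower (-1.43 ± 0.11).

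Several other lists moved in both directions. Of 36 collagen and matrix genes 15 were higher and 14 lower: TNC, the matrix protein tenascin-C, lay at 134 to 178 CPM in KO and 16.3 to 24 CPM in WT (log2 3.06 ± 0.05), and COL1A1 was lower (-1.51 ± 0.09). Of 34 epithelial and mesenchymal genes 14 were higher and 14 lower. The junction genes DSP (log2 4.17 ± 0.21), EPCAM (3.21 ± 0.18) and CLDN1 (2.64 ± 0.14) were higher, and the contractile gene CNN1 was lower (-3.01 ± 0.14). Of 33 hypoxia-inducible genes 16 were higher and 8 lower. CA12, a carbonic anhydrase, lay at 205 to 369 CPM in KO and 66.2 to 107 CPM in WT (log2 1.67 ± 0.04), while HIF1A lay at 9.8 to 12.7 CPM against 41.5 to 49.4 CPM (-1.93 ± 0.07). Wnt pathway genes had 6 of 27 higher and 15 lower, cholesterol synthesis genes 5 of 23 higher and 13 lower, and H3K36 methylation genes 7 of 29 higher and 10 lower. Cell death regulators had 16 of 29 higher and 5 lower. Among the higher ones were the pro-death gene BID (log2 1.04 ± 0.06) and the inhibitor of apoptosis gene BIRC2 (1.06 ± 0.07). The 5 Mb window of BIRC2 (chromosome 11, 100 to 105 Mb) had a median of 0.473, with 52.9% higher. Matrix proteases and their inhibitors had 13 of 22 higher and 9 lower, with PLAU, the plasminogen activator urokinase, at means of 63.2 and 19.1 CPM (log2 1.75 ± 0.06). Of 23 AKR1C and NRF2 target genes 11 were higher and 8 lower, and of 31 BMP and TGF-beta pathway genes 13 and 11. DNA methylation machinery genes had 8 of 20 higher and 7 lower, the widest being TET1, which oxidises methylated cytosine, at 1.41 and 6.4 CPM (log2 -2.16 ± 0.13). Of the 5 cancer-testis and germline genes measured 4 were lower and 0 higher.

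**Figure D2:**
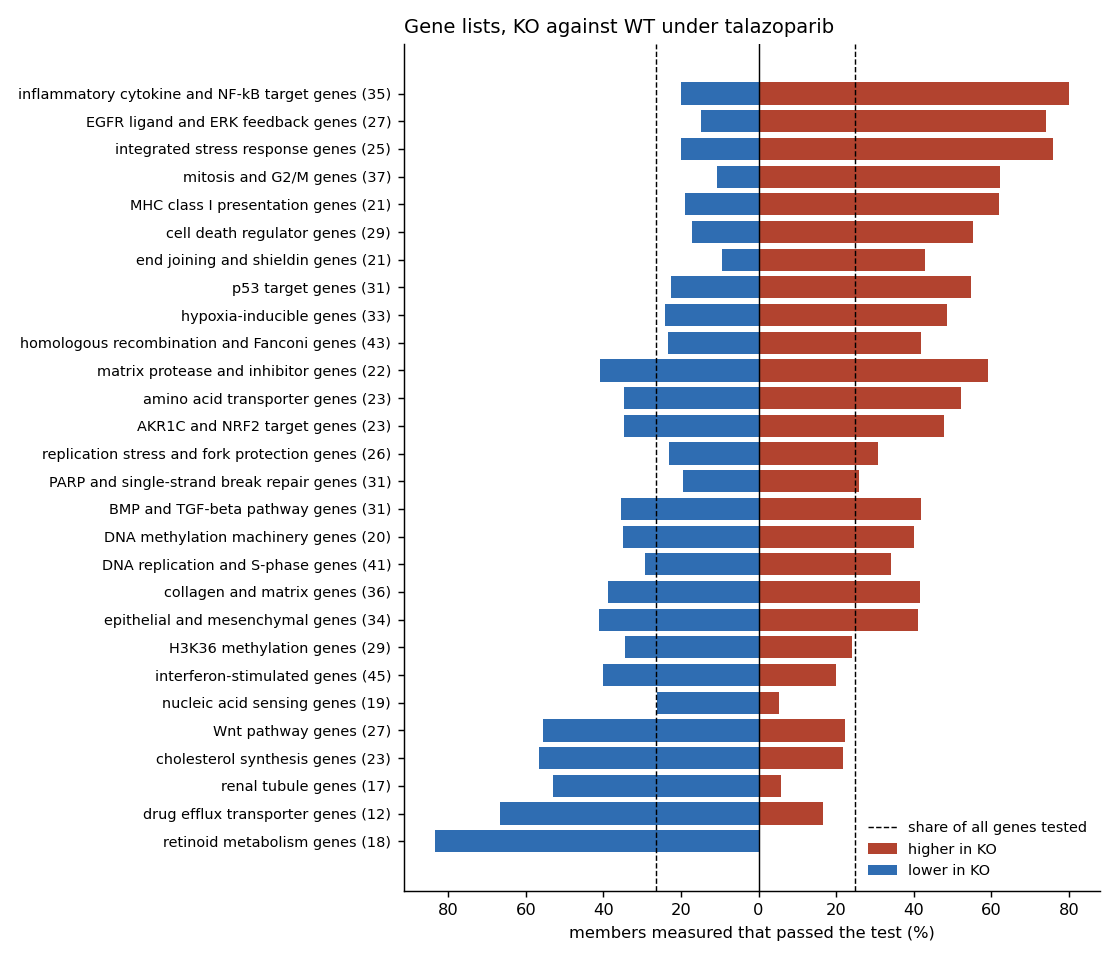
Percentage of the measured members of each gene list that were higher (right) or lower (left) in KO under talazoparib, with the number measured in brackets and dashed lines at the shares of all genes tested (24.9% higher, 26.4% lower). NF-kB, EGF receptor and ERK, and integrated stress response genes extend furthest to the right of the dashed lines, and retinoid genes extend only to the left.

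Chromosome 17 stood apart from the others. Of its 1160 tested genes 676 (58.3%) were lower in KO and 8.62% higher, with a median log2 difference of -0.441. Chromosome 19 had the next highest share of lower genes, 39.7%. The falls were concentrated between 25 and 60 Mb, a stretch chosen after its values were seen: of 530 genes tested there 409 (77.2%) were lower and 17 (3.21%) higher, with a median of -0.694. The other 630 genes of the chromosome had a median of -0.195. The median of the stretch was -0.661 at day 5, -0.665 at day 16, -0.712 at day 26 and -0.656 in untreated cells. BRCA1, RAD51C, RAD51D, EME1, LIG3, SLFN11, ERBB2, TOP2A, ABCC3, RARA and SUPT6H of the lists above lie in it. Outside the stretch 25.5% of 18760 genes were higher and 24.9% lower. Windows of 5 Mb elsewhere with a median beyond 0.5 in size were found on chromosome 4 (180 to 190 Mb, medians of -1.063 and -1.401), chromosome 8 (0 to 15 Mb, -1.171, -0.791 and -0.812), chromosome 7 (0 to 5 Mb, -0.551, and 35 to 40 Mb, -0.644) and chromosome 10 (60 to 65 Mb, 0.517). On chromosome 11 the windows from 100 to 130 Mb stayed below that size, with medians of 0.308 to 0.495. DNA copy number was not measured here.

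**Figure D3:**
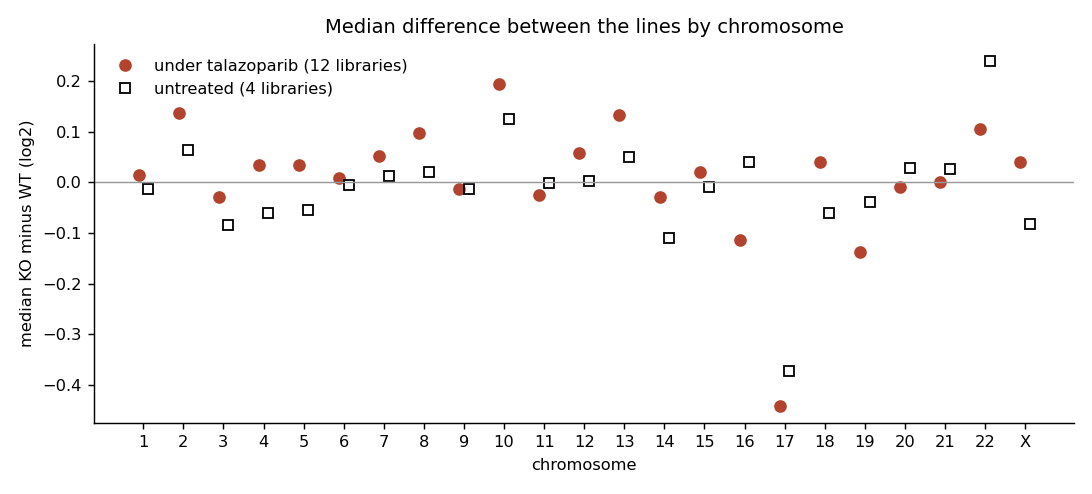
Median log2 difference between KO and WT over the tested genes of each chromosome, under talazoparib (filled circles) and untreated (open squares). Chromosome 17 lies lowest in both, at -0.441 and -0.372.

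Most genes that differed between the untreated lines also differed under the drug, in the same direction. In untreated cells 5594 of 19587 genes differed between KO and WT (28.6%; 2754 higher, 2840 lower), and 4294 to 6255 did with a single untreated library left out. Among the 19276 genes tested in both comparisons, 4890 passed in both and 4869 of them had the same direction, which is 49.3% of those that passed under talazoparib and 87.7% of those that passed untreated. The other 21 had opposite directions. Of all genes tested untreated, 3.08% were at least 2-fold higher in KO and 5.84% at least 2-fold lower. Of the genes that differed at least 2-fold, 1334 were shared in the same direction (63.7% and 78.3%) and 0 in the opposite. The 2 differences are taken between separate libraries. The untreated fit also held the 12 talazoparib libraries, which entered its filter, scaling and estimate of the spread. NDN, GALNT5 and LCP1 show it gene by gene: untreated NDN had 0 counts in KO and 11.8 and 13.5 CPM in WT, untreated GALNT5 had means of 15.6 and 0.0511 CPM, and untreated LCP1 had 178 and 161 CPM in KO against 1.16 and 1.14 CPM in WT. Of the lists, untreated EGF receptor and ERK genes had 19 of 28 higher and 3 lower. Untreated integrated stress response genes had 16 of 25 higher and 3 lower, and retinoid genes 0 of 18 higher and 10 lower. Of all genes tested untreated, 14.1% were higher and 14.5% lower.

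Few genes had a line difference under talazoparib that departed from the untreated one. The test of that difference passed at 104 of 19587 genes (0.531%), 8 of them toward KO (0.0408%) and 96 toward WT (0.49%). In the 96 the median change from untreated to talazoparib was a log2 of -1.048 in KO and -0.221 in WT. The count was unstable: it ran from 61 without the first untreated KO library to 3166 without the second untreated WT library.

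4 genes carried this change most plainly. LINC02532, a long non-coding RNA, stood at 18.4 and 18.1 CPM in untreated KO and at 1.77 to 3.93 CPM in the 6 KO libraries with the drug, while WT went from 43.6 and 43.3 CPM to 27.3 to 33.2 CPM (log2 difference of the differences -2.13 ± 0.14, adjusted p = 1.4e-07). VAV3, a signalling protein, stood at 16.8 and 18.1 CPM in untreated KO and at 2.13 to 4.5 CPM with the drug, while WT went from 25.7 and 24.5 CPM to 12.5 to 20.2 CPM (-1.90 ± 0.14, adjusted p = 2.2e-07). KMO, an enzyme of tryptophan breakdown, crossed over: KO was above WT untreated (7.6 and 10.1 against 4.38 and 4.61 CPM) and below it under the drug (1.94 to 3.52 against 4.49 to 5.55 CPM; -1.88 ± 0.25, adjusted p = 0.00078). DHRS3 of the retinoid list went from 30.9 and 32.3 CPM to 4.59 to 10.9 CPM in KO and from 75.8 and 89.4 CPM to 31.9 to 62.8 CPM in WT (-1.17 ± 0.12, adjusted p = 1.8e-05). For LINC02532, VAV3, KMO and DHRS3 the test passed with every single library left out in turn.

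**Figure D4:**
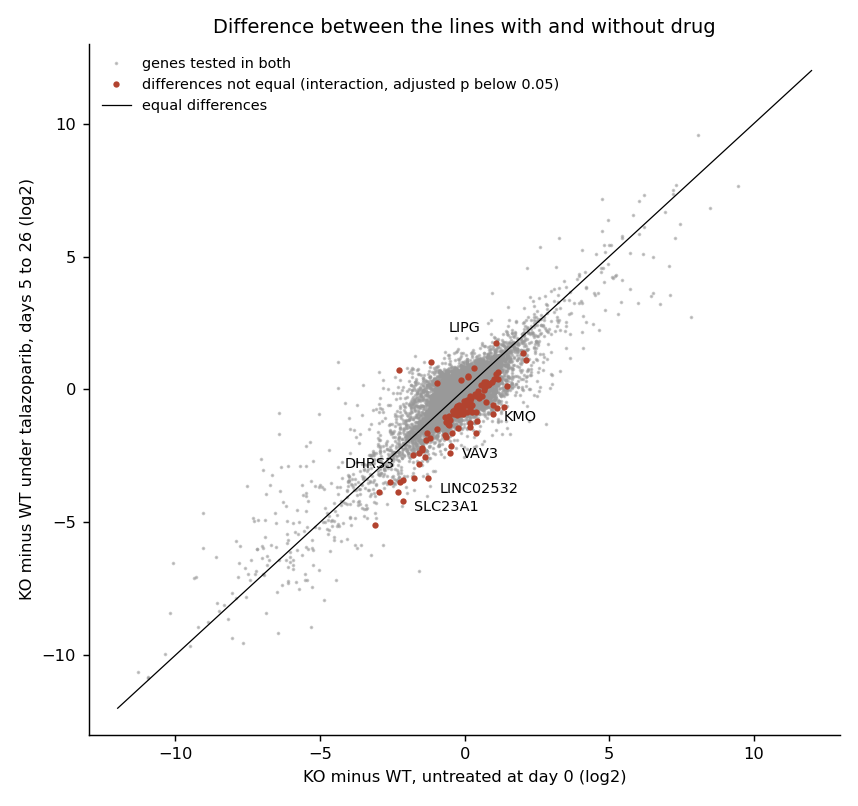
Log2 difference between KO and WT for each gene untreated (horizontal axis) and under talazoparib (vertical axis), with the line of equal differences and, in red, the genes whose differences were not equal by the interaction test. LINC02532, VAV3, KMO and DHRS3 lie below the line, and most genes lie along it.

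Of the changes toward KO, LIPG, an endothelial-type lipase, stood at 15.7 to 36.1 CPM in KO with the drug against a mean of 21.4 CPM untreated, while WT went from a mean of 10.2 CPM to 5.68 to 12.8 CPM (0.69 ± 0.15, adjusted p = 0.046). LIMA1, an actin-binding protein, had a KO mean of 99.5 CPM under the drug and 65 CPM untreated, against 57.7 and 51.3 CPM in WT (0.46 ± 0.10, adjusted p = 0.032). LIPG and LIMA1 lost the call in 14 and 12 of 16 fits with a single library left out (adjusted p up to 0.21 and 0.25). TXNIP, an inhibitor of thioredoxin that responds to glucose, had a smaller line difference under the drug: untreated it stood at means of 62.2 CPM in KO and 34.6 CPM in WT, and with talazoparib at 24.9 and 22.4 CPM (-0.62 ± 0.11, adjusted p = 0.011; up to 0.1 with a library left out). The talazoparib means of TXNIP pool days 5, 16 and 26. By the interaction test with time, its line difference moved toward KO from day 5 to day 26 (1.26 ± 0.15, adjusted p = 0.00023). PARP1, BRCA1 and TNF did not pass the test against untreated cells, and no member of the 43 homologous recombination or 31 PARP genes did. Only 0.531% of all genes tested passed it, so 0 in lists of this size does not set them apart.

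The lines differed on each day of treatment. At day 5, 6367 genes passed (32.5%), at day 16, 6289 (32.1%) and at day 26, 7675 (39.2%; 5473 to 6847 with a single library of that day left out). The totals of days 5 and 16 were also lower in each fit with a library of that day left out. In the same direction on all 3 days were 1710 higher and 2047 lower genes. The line difference at day 26 departed from that at day 5 at 641 genes (3.27%), 221 toward KO (1.13%; 18 to 502 with single libraries left out) and 420 toward WT (2.14%; 175 to 512). With day 16 in place of day 26 the count was 9, and it ran from 198 without the first WT library of day 5 to 1014 without the second WT library of day 26. The WT libraries at day 26 also held the most long non-coding RNA, 3.51% and 3.06% of counts against 1.71% to 2.64% in the other talazoparib libraries. Of the 420 calls toward WT 114 (27.1%) were such genes, against 14.4% of all genes tested, and the part of these libraries in the calls was not tested. RYR3, a protein-coding gene of a calcium release channel, stood at 7.05 and 6.3 CPM in WT at day 26, at 2.32 and 2.32 CPM in WT at day 5, and at 1.47 to 3.19 CPM in KO (-1.96 ± 0.40, adjusted p = 0.011; up to 0.062 with a library left out). INHBA, an activin subunit, had KO means of 250 CPM at day 5 and 252 CPM at day 26 while WT went from a mean of 63.9 to 135 CPM (-1.04 ± 0.15, adjusted p = 0.0012).

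**Figure D5:**
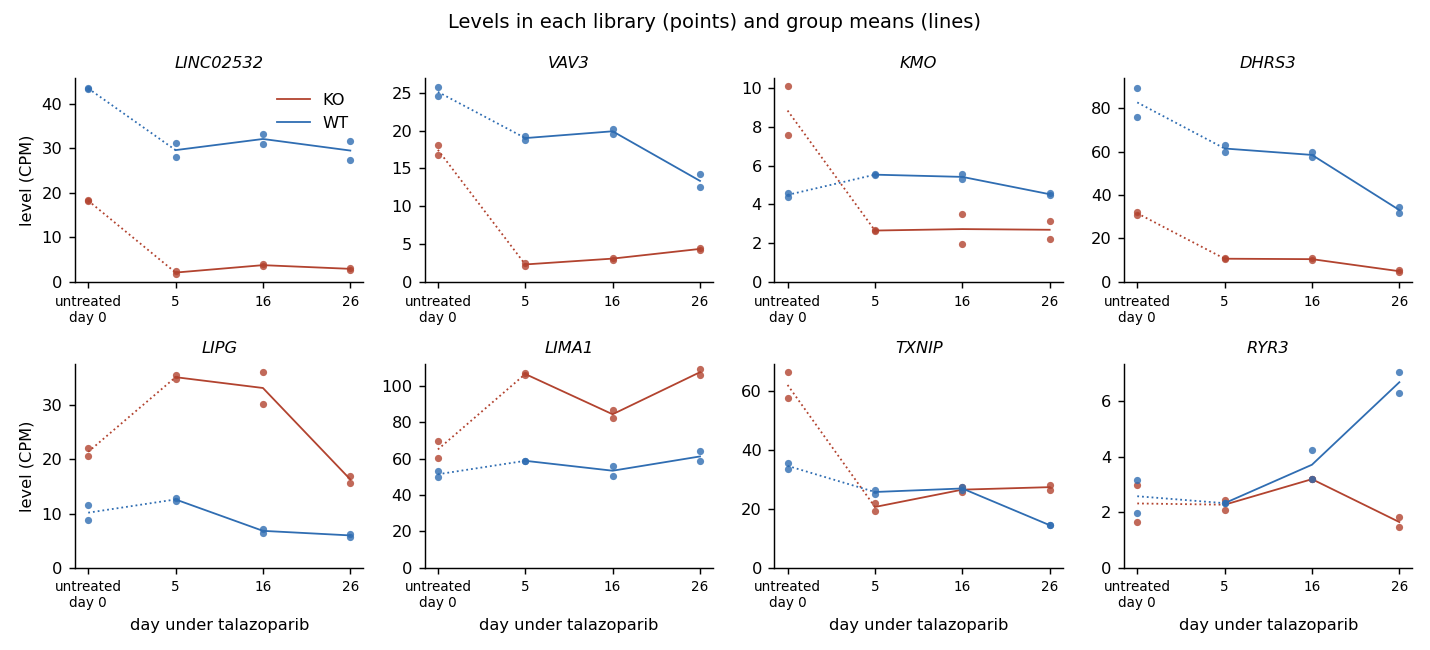
Levels in CPM of 8 genes in each library (points) and group mean (lines), untreated at day 0 and at days 5, 16 and 26 under talazoparib, for KO (red) and WT (blue), with dotted lines joining the untreated mean to day 5. LINC02532, VAV3 and KMO are lower in KO on all 3 days than in untreated KO, and RYR3 is highest in the 2 WT libraries of day 26.

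The line difference under talazoparib also departed from that under DAC on the same days, at 5342 of 21592 genes (24.7%; 2402 toward KO, 11.1%, and 2940 toward WT, 13.6%). Genes nearly silent in 1 line under talazoparib were among the widest departures. H1-1, a linker histone gene, had means of 9.1 CPM in KO and 0.0838 CPM in WT under talazoparib, and of 30.9 and 21.9 CPM under DAC (6.17 ± 0.22, adjusted p = 4.4e-17). Histone genes have near-identical copies, and their reads could be shared. NDN was detected in KO under DAC, at a mean of 4.51 CPM against 14.2 CPM in WT. H19, an imprinted long non-coding RNA, had means of 0.0513 CPM in KO and 7.73 CPM in WT under talazoparib and of 981 and 730 CPM under DAC. GALNT5 kept its direction, at means of 55.1 CPM in KO and 5.83 CPM in WT under DAC. Of the 18 genes at 0 in KO under talazoparib, NDN and RHOD reached a mean of at least 1 CPM in KO under DAC, and TMEM98, ST6GAL2 and DANT2 had 0 counts there too.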

How the data were processed

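Total RNA of 40 libraries was sequenced from KAPA RNA HyperPrep preparations. Raw counts per gene were deposited by the authors and, per the file header, came from featureCounts 1.5.0-p1 on the Ensembl 104 annotation of GRCh38 (strand setting 1, mapping quality 20 or more, only primary alignments, reads marked as duplicates ignored). The submitters' processing notes also name FastQC, Trimmomatic and Partek.

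Here counts were scaled by TMM and tested by edgeR 4.0.16 in R 4.3.3 (quasi-likelihood, Benjamini-Hochberg adjustment over all genes tested), after filterByExpr with a minimum count of 10 and a minimum total of 15. The main comparison fitted day and line to the 12 talazoparib libraries (19290 genes, 8 residual degrees of freedom, biological coefficient of variation 0.07819). Single days, the untreated comparison and the 2 interactions with day 0 and with time came from group means over 16 libraries (19587 genes), and the comparison with DAC from group means over 24 libraries (21592 genes). CPM were scaled by TMM over all 40 libraries. For a group at 0, a bound was computed from 3 counts per library, and such bounds cover counting error only.

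The members and gene lists were chosen with earlier results of these data known. Genes were named by a rule: SETD2, PARP1, PARP2 and SLFN11; the 12 widest rises and 12 widest falls with a symbol, at least 5 CPM in the higher line and no overlap of the libraries; up to 4 members of each list with 3 or more that passed; and the 5 highest and 5 lowest values of each interaction with a mean of at least 5 CPM. The text prints a choice among these, plus other list members chosen after their values were seen. Lists are described by counts and medians, with no set test. Replicate numbers were not used to pair libraries in the main fits. Deviations of same-numbered libraries correlated at 0.0566 in untreated cells, -0.00305 at day 5, 0.0176 at day 16 and 0.113 at day 26. The labels do not say whether same-numbered libraries were handled together. Alternatives covered normalization, the DESeq2 1.42.0 test, filters, blocks and leaving out each library. In data simulated for the main comparison (18694 genes), 44 of 67 genes changed 1.5-fold were recovered (65.7%), 58 of 67 changed 2-fold (86.6%) and 66 of 66 changed 4-fold, with 10 false calls. Only these genes were changed, and the spread followed the trend over all genes, without the wider WT pair of day 26. The simulation therefore does not give the error rate of the 9884 calls. Promoter sequences are from RefSeq (GRCh38.p14), matched by symbol. Values of overlapping genes and of near-identical copies (histone, ACSM2, UGT1A and pseudogenes) may mix reads. The combination of both drugs is not analysed here, and a few single-gene results are not reported here.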

Additional observations from a re-analysis of the deposited data

Results flagged for a closer look

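Each result here is a difference between the lines that itself differed between conditions by an interaction test, given as the log2 difference of the differences ± SE with its adjusted p from edgeR's quasi-likelihood test. Genes with a group at 0 counts were left out of this part.

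Between talazoparib and untreated cells, the difference moved toward WT for LINC02532 (-2.13 ± 0.14, 1.4e-07), VAV3 (-1.90 ± 0.14, 2.2e-07), DHRS3 (-1.17 ± 0.12, 1.8e-05) and KMO (-1.88 ± 0.25, 0.00078). It also did so for the complement gene C3 (-0.93 ± 0.14, 0.0022), the cadherin gene CDH6 (-0.54 ± 0.09, 0.0037), the angiogenic factor VEGFA (-0.48 ± 0.08, 0.007), TXNIP (-0.62 ± 0.11, 0.011), the vitamin C transporter gene SLC23A1 (-2.06 ± 0.41, 0.024) and ACSM2A (-2.16 ± 0.48, 0.046). It moved toward KO for RAB3B (0.48 ± 0.08, 0.0081), LIMA1 (0.46 ± 0.10, 0.032), the translation factor gene EIF2S2 (0.41 ± 0.08, 0.033), the pseudogene SNRPFP1 (1.21 ± 0.26, 0.044) and LIPG (0.69 ± 0.15, 0.046). In 16 fits that each left out a single library, the call was lost 14 times for LIPG (adjusted p up to 0.21), 13 for SNRPFP1 (0.35), 12 each for LIMA1 and EIF2S2 (0.25 for both), 10 for ACSM2A (0.18) and 4 for SLC23A1 (0.19). It was lost once each for RAB3B (0.13), TXNIP (0.1) and CDH6 (0.052).

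Between day 26 and day 5 of talazoparib, the difference moved toward KO for TXNIP (1.26 ± 0.15, 0.00023), VAV3 (1.45 ± 0.20, 0.0012), LINC00632 (1.66 ± 0.28, 0.004), the histone gene H2BC3 (1.44 ± 0.32, 0.018), the thioredoxin reductase gene TXNRD1 (0.29 ± 0.08, 0.047) and the arginine transporter gene SLC7A2 (3.64 ± 0.98, 0.049). SLC7A2 had WT means of only 0.294 CPM (day 5) and 0.0551 CPM (day 26). The difference moved toward WT for INHBA (-1.04 ± 0.15, 0.0012), TNFRSF9 (-0.60 ± 0.09, 0.0024), the DNA-dependent protein kinase gene PRKDC (-0.48 ± 0.08, 0.0028), ADAMTS9 (-0.67 ± 0.12, 0.0049), the laminin gene LAMB3 (-0.69 ± 0.13, 0.0091) and the tight junction gene CLDN1 (-0.60 ± 0.14, 0.03). PRKDC means at days 5 and 26 were 1097 and 1552 CPM for WT, and 1628 and 1616 CPM for KO. UGT1A5 (-2.26 ± 0.39, 0.004), FAM133CP (-2.03 ± 0.40, 0.0097), RYR3 (-1.96 ± 0.40, 0.011), FAM106A (-1.87 ± 0.41, 0.016) and N4BP2L2-IT2 (-2.05 ± 0.45, 0.018) moved the same way. UGT1A5 shares exons with its neighbours. In 8 fits that each left out a single library, the call was lost 7 times for SLC7A2 (adjusted p up to 0.19) and TXNRD1 (0.3), 6 for H2BC3 (0.1) and CLDN1 (0.14), 5 for N4BP2L2-IT2 (0.11) and FAM106A (0.12), 2 for FAM133CP (0.078) and 1 for RYR3 (0.062).

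Between talazoparib and DAC, the difference moved toward KO under talazoparib for H1-1 (6.17 ± 0.22, 4.4e-17), DENND2D (3.90 ± 0.32, 1.1e-09) and the activin-type gene INHBE (3.70 ± 0.35, 9.4e-09). INHBE had means of 1.33 CPM in KO and 0.221 CPM in WT under talazoparib, and of 2.93 and 5.08 CPM under DAC.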

How the results depend on the processing

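The count of genes that differed between the lines under talazoparib kept within 1.5 times of 9884 under each alternative run (9494 to 10212 with single libraries left out). The 2-fold counts were 355 higher and 940 lower when genes needed at least 1 CPM in at least 6 libraries. The alternative that left out day 26, added after the data were seen, kept the NF-kB counts at 28 higher and 7 lower, those of the integrated stress response at 19 and 5, and gave 0 and 16 for retinoid genes. It gave a chromosome 17 median of -0.406 and a SETD2 difference of 0.00.

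The comparison with untreated cells was the least stable, at 104 genes (8 toward KO, 96 toward WT). It gave 538 genes (160 and 378) with no filter on low counts, 271 (29 and 242) with all 40 libraries in 1 fit, and 64 (2 and 62) from days 5 and 16. The count toward KO was 4 with a term for the name of the alignment. Leaving out single libraries gave 61 to 3166 genes, with 1 to 937 toward KO and 57 to 2229 toward WT. With the replicate number as a block it gave 167 genes (17 and 150), and the block moved no other count by over 1.5 times. The labels do not say whether same-numbered libraries were handled together. The cause of these shifts was not tested.

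The comparison of day 26 with day 5 gave 373 genes toward KO with no filter, 1019 in all with 706 toward WT in 1 fit of all libraries, and 198 to 1014 with single libraries left out (18 to 502 toward KO, 175 to 512 toward WT). With day 16 in place of day 26 it gave 9 genes (4 and 5), and H2BC3 (-0.12), UGT1A5 (0.73), ADAMTS9 (0.13) and CLDN1 (0.36) changed direction. With single libraries left out, the genes lower in KO numbered 2228 to 2365 at day 5 and 2171 to 2333 at day 16.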
